A study of Homo sapiens with 6 samples.

Results

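The EGF family ligands and the ERBB receptors were examined in U2OS cells, a human osteosarcoma line, after knockdown of LSD1. The members were 10 genes chosen by name from the 15585 genes of the count table, namely the ligand genes AREG, EREG, HBEGF, TGFA, BTC and NRG1 and the receptor genes EGFR, ERBB2, ERBB3 and ERBB4. AREG had been picked for its rise in these libraries, so its values are given as a description and without a p-value, and the other members were chosen to stand beside it. Rows were found for 8 of the 10 members, 6 of them passed the filter on low counts and were tested, and EREG and BTC were not analysed here. In the siLSD1 libraries AREG was 6.09-fold higher than in the siCTR libraries. In the main fit with edgeR's quasi-likelihood test, HBEGF was 1.31-fold higher without passing after adjustment. None of the 3 tested receptor genes passed in that fit at an adjusted or an unadjusted p under 0.05. EGFR was past the unadjusted threshold in some other fits.

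LSD1, encoded by KDM1A, removes methyl groups from lysine residues of histones. Cells in both groups came from the same line and both received siRNA by transfection. The siCTR group was transfected with control siRNA and the siLSD1 group with siRNA against LSD1, each for 48 h and with 3 libraries. The sources do not say which LSD1 siRNA was used for sequencing, nor whether the libraries of a group came from separate cultures, so the p-values measure the spread between these samples, which may be technical.

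Ligands of the EGF family are made as transmembrane precursors and released by metalloproteases of the ADAM family at the cell surface. A ligand binds an ERBB receptor, the receptor pairs with another ERBB receptor, and the kinases of the pair start signaling through RAS and ERK and through PI3K and AKT. AREG, TGFA and EGF bind EGFR, while HBEGF, EREG and BTC bind EGFR and ERBB4, and neuregulins bind ERBB4 or both ERBB3 and ERBB4. ERBB2 has no known ligand and acts as a partner, and ERBB3 has very little kinase activity of its own. ERK signaling in turn raises the transcription of feedback regulators that dampen the pathway.

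Between 12513511 and 13561344 reads were counted per library. KDM1A reads numbered 6140 to 6573 under siCTR and 1110 to 1246 under siLSD1, or 18.5% of the siCTR level. The mesenchymal marker VIM was at 395 to 464 FPKM. Among markers of bone-forming cells, ALPL was at 117 to 149 FPKM and COL1A1 at 1.35 to 2.24 FPKM, and SPARC (at most 0.0610 FPKM) and RUNX2 (at most 0.0416 FPKM) were near 0. FPKM is the read count divided by the length of the gene and by the depth of the library. The summed FPKM of the 7 listed mesenchymal markers was 544 to 597 in siCTR and 564 to 596 in siLSD1, and that of the 5 listed epithelial markers, of which KRT5 and KRT14 were at or near 0, was 7.48 to 8.52 and 7.77 to 9.01. Within these lists, FN1 (log2 fold change 0.95, edgeR adjusted p = 0.0216) was higher in siLSD1, and CDH1 had a log2 fold change of 0.77 (adjusted p = 0.0699 with edgeR, 0.0761 with limma-voom and 0.0285 with DESeq2). Their part in the results below was not tested.

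AREG encodes amphiregulin, a ligand of EGFR, and lies at chr4:74445136-74455005 on the plus strand (GRCh38). The siCTR libraries held 4, 2 and 4 AREG reads, and the siLSD1 libraries held 23, 17 and 23. Every siLSD1 library was above every siCTR library, yet the gene was sparsely read in both groups. Its level was 0.251, 0.124 and 0.240 FPKM in siCTR and 1.40, 1.10 and 1.37 FPKM in siLSD1, with means of 0.205 ± 0.0704 and 1.29 ± 0.166 (SD, n = 3 each). The fitted log2 fold change was 2.61 (SE 0.45, 95% confidence interval 1.64 to 3.57), values that describe its size and precision and are no test, since the gene was chosen for its rise. By its mean level over the 6 libraries, AREG ranked only 10787 of the 15585 genes. In bulk RNA, more cells expressing the gene and more RNA per cell cannot be told apart.

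The precision of the AREG value was set by its low counts. Summed over libraries it had 10 siCTR and 63 siLSD1 reads, a ratio of 6.29 with an exact counting interval of 3.21 to 13.8, which covers counting error only. One read corresponded to 0.0737 to 0.0799 CPM, the read count scaled to library size. No siCTR library and all 3 siLSD1 libraries held at least 10 reads, so AREG passed the filter through the group in which it was high. The count tables of the library pairs, which hold another counting of the same libraries, gave 5, 3 and 6 siCTR reads and 24, 20 and 23 siLSD1 reads, with a log2 fold change of 2.22. Older human assemblies carry another near-identical copy of AREG between which reads could be split, and the build behind these counts is not given in the sources used here, so the absolute level of AREG is uncertain.

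The 250 bases before the start of AREG are shown beside those of HBEGF and EGFR, the ligand and the receptor gene with the highest level among the members, to set the start region of the sparsely read gene against those of abundant relatives. The sequences are from RefSeq (GRCh38.p14), are written 5′ to 3′ on the strand of the gene and end at the base before its start. Capitals mark matches on either strand to the cAMP response element TGACGTCA, to the binding motif TGANTCA of the AP-1 factors, to the core promoter element TATAAA, or to the motif GGAATG of the TEAD factors. The regions are chr4:74444886-74445135 on the plus strand for AREG, chr5:140346604-140346853 on the minus strand for HBEGF and chr7:55018767-55019016 on the plus strand for EGFR.
AREG: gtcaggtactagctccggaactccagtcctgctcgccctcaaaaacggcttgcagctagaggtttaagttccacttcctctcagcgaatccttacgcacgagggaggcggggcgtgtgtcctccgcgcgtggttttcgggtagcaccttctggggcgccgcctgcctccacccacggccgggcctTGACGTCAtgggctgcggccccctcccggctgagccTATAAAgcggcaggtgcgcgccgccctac
HBEGF: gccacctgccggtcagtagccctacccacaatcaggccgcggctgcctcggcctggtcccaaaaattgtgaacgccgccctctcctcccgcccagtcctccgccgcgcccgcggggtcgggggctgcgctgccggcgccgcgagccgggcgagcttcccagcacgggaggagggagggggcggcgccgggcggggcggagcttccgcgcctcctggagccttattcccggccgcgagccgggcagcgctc
EGFR: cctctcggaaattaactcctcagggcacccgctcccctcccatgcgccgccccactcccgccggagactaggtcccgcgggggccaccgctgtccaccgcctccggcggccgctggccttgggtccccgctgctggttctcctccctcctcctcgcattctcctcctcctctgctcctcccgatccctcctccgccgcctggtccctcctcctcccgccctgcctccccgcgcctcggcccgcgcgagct

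The AREG window held 1 TGACGTCA at 65 to 58 bases before the start and 1 TATAAA at 29 to 24 bases before it, which do not overlap. The HBEGF window and the EGFR window shown held none of the 4 marked motifs. RefSeq has another EGFR start, and its window (chr7:55109589-55109838, plus strand, not printed) held TGANTCA and TATAAA 2 times each and GGAATG 1 time. Of the other members with a window, EREG had TATAAA at 32 to 27 and GGAATG at 175 to 170 bases before its RefSeq start. ERBB2 had 1 match to TGANTCA at 222 to 216 bases before its RefSeq start, and TGFA, BTC and ERBB4 had no match to the marked motifs. For ERBB2, TGFA and ERBB4 the RefSeq starts differ from the gene coordinates given here, and their windows lie partly or wholly inside those coordinates. The GC box GGGCGG was found 5 times in the HBEGF window, with a pair of matches sharing 1 base, 2 times in the EGFR window shown and 1 time in the AREG window. Among 35116 RefSeq windows of the same length, 1.65% held TGACGTCA, 10.7% TATAAA, 6.57% TGANTCA, 11.9% GGAATG and 42.6% GGGCGG. The E-box CACGTG, also searched, was in 6.34% of them and in no window of the 8 members that had one. A window was matched by symbol for 9371 of the tested genes other than AREG. Those with each motif had median log2 fold changes between -0.02 and 0.03, beside -0.01 for all matched genes. Genes higher in siLSD1 at an adjusted p under 0.05 made up 1.52% of the 330 genes with TGACGTCA and 1.69% of the 712 with TATAAA, and genes lower made up 0.909% and 0.843% of them. The share of genes higher was 1.64% for GGAATG, 1.23% for TGANTCA, 0.909% for the GC box and 0.751% for the E-box, beside 0.992% higher and 0.331% lower among all matched genes. The shares of genes lower were between 0.0939% and 0.572% for these 4 motifs, and these shares were not tested against each other. These matches describe letters in the window and not a bound site.

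HBEGF encodes heparin-binding EGF-like growth factor and lies at chr5:140332843-140346603 on the minus strand. It was the ligand gene with the highest level per length, with 7.95, 9.33 and 8.42 FPKM in siCTR and 11.1, 11.3 and 11.4 FPKM in siLSD1. The groups did not overlap, and the siLSD1 libraries were close together. The read counts were 244, 290 and 270 against 351, 336 and 369, and the log2 fold change was 0.39 (SE 0.13, 95% confidence interval 0.11 to 0.67). The adjusted p of edgeR's quasi-likelihood test was 0.186 over all genes tested (unadjusted p = 0.0101). When the fit was corrected for GC and length of the genes, the log2 fold change was 0.42 and the adjusted p was 0.0232, in a fit that called 4.64% of all genes higher. The mean deviation of the tenth of genes with the highest GC content ran from -0.44 on the log2 scale in siLSD1 replicate 3 to 0.21 in siCTR replicate 1, so GC trends differed between libraries.

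The remaining ligand members were read sparsely. NRG1 encodes neuregulin 1, a ligand of ERBB3 and ERBB4, and its reads numbered 27, 32 and 30 under siCTR and 33, 34 and 36 under siLSD1. In CPM the groups overlapped, and the log2 fold change was 0.21 (SE 0.25, 95% confidence interval -0.34 to 0.76, edgeR adjusted p = 0.753), and 0.12 when corrected for GC and length. TGFA, which encodes transforming growth factor alpha, lies at chr2:70447284-70554193 on the minus strand and had 2, 0 and 1 reads against 2, 2 and 2. It did not pass the filter, and the ratio of the summed reads, 6 over 3, had an exact counting interval of 0.427 to 12.3. No difference in TGFA was detectable at this depth.

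Of the 5 EGF family ligand genes outside the members, EGF, EPGN, NRG2 and NRG4 had rows, and NRG3 was not analysed here. NRG4, a ligand of ERBB4, was the best covered, with 53, 61 and 70 siCTR reads and 43, 50 and 59 siLSD1 reads. Its level was 4.03 ± 0.468 FPKM in siCTR and 3.33 ± 0.492 FPKM in siLSD1 (SD, n = 3 each), with a log2 fold change of -0.28 (SE 0.22, 95% confidence interval -0.76 to 0.21, edgeR adjusted p = 0.606). Without siLSD1 replicate 1 it was -0.16. The other 3 genes did not pass the filter. NRG2, which encodes neuregulin 2, had 4, 1 and 8 reads against 6, 9 and 13. Its groups overlapped, and the ratio of the summed reads was 2.15 with an exact counting interval of 1.08 to 4.52, which does not cover the spread between libraries. EGF, the founding ligand of the family, had siCTR counts of 2, 1 and 0 and no read in any siLSD1 library, which allows a level of up to 0.0762 CPM over the group. EPGN, which encodes epigen, had 1 read in 1 library of each group.

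Expressed as a share of the summed FPKM of the 8 listed ligand genes, the ligand pool was led by HBEGF and NRG4. HBEGF made up 65.0 ± 2.69% in siCTR and 68.8 ± 1.85% in siLSD1 (SD, n = 3 each), with overlapping libraries. The AREG share was 2.07%, 0.894% and 1.77% in siCTR and 8.88%, 6.72% and 8.01% in siLSD1, and thus stayed a small part of the pool in both groups. NRG4 made up 30.6 ± 2.25% in siCTR and 20.3 ± 2.23% in siLSD1. These NRG4 shares did not overlap although its levels did, since the sum of the pool was 13.2 ± 0.916 FPKM in siCTR and 16.4 ± 0.686 FPKM in siLSD1. NRG1 held 1.86 ± 0.0707% and 1.74 ± 0.0640% of the pool. The gene length implied by the FPKM values was 1159 bases for NRG4 and 9211 for NRG1, with 184 and 89 summed siCTR reads. The gap between their shares thus rests on these lengths as well as on reads. The shares depend on one another and on AREG, which was chosen for its rise, and were not tested. An exact permutation test of 3 against 3 libraries could not give a p below 0.10.

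**Figure D1:**
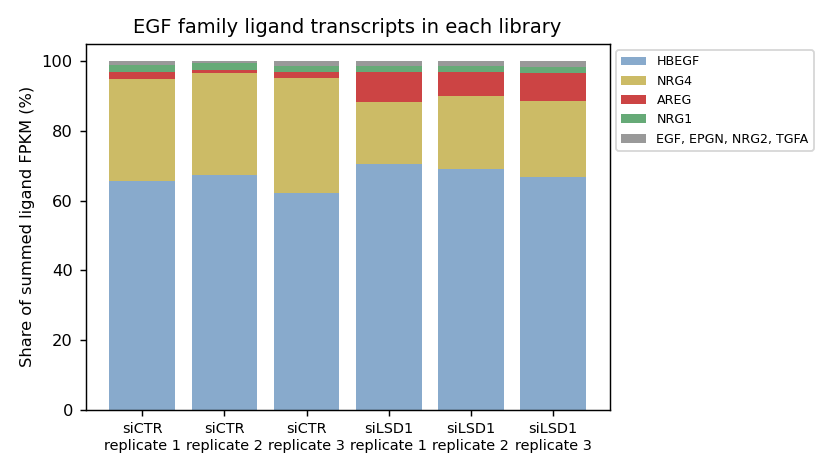
Share of each ligand gene in the summed FPKM of the 8 listed EGF family ligand genes, as a stacked bar from 0 to 100% for each of the 3 siCTR and 3 siLSD1 libraries. HBEGF takes between 62.1% and 70.4% of every bar, and the AREG segment is 0.894% to 2.07% in siCTR and 6.72% to 8.88% in siLSD1.

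EGFR, the receptor for AREG, had the highest level of all members. It lies at chr7:55019017-55211628 on the plus strand and had 36.6, 25.1 and 37.2 FPKM in siCTR and 39.0, 40.2 and 42.7 FPKM in siLSD1. All 3 siLSD1 libraries were above all siCTR libraries, and siCTR replicate 2 stood below the others in its group, at 69.3% of their mean CPM. The log2 fold change was 0.30 (SE 0.14, 95% confidence interval -0.00 to 0.61), and edgeR's quasi-likelihood test did not call it (adjusted p = 0.362). Before adjustment, EGFR was past 0.05 with DESeq2 and limma-voom but not with edgeR. Without siCTR replicate 2 the log2 fold change was 0.15 (adjusted p = 0.526). That library also held the lowest siCTR count of ERBB2, at 83.2% of the mean CPM of the others, and of ERBB3, at 88.7%, whereas its HBEGF level was 116% of theirs.

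ERBB2 encodes the partner receptor without a known ligand and lies at chr17:39687914-39730426 on the plus strand. Its reads numbered 1248, 992 and 1203 under siCTR and 1278, 1161 and 1165 under siLSD1, with 15.5 ± 1.87 FPKM and 16.2 ± 0.922 FPKM (SD, n = 3 each). The groups overlapped, and the log2 fold change of 0.06 (SE 0.12, 95% confidence interval -0.19 to 0.32, edgeR adjusted p = 0.841) became -0.017 without siCTR replicate 2 and 0.13 without siCTR replicate 1. ERBB3, the neuregulin receptor at chr12:56076799-56103505 on the plus strand, had siCTR counts of 279, 250 and 301 and siLSD1 counts of 306, 274 and 335. The log2 fold change was 0.14 (SE 0.13, 95% confidence interval -0.15 to 0.42, edgeR adjusted p = 0.668), again with overlapping groups, and it was 0.08 without siCTR replicate 2 and 0.09 without siLSD1 replicate 3. ERBB4, at chr2:211375717-212538841 on the minus strand, had 9, 17 and 7 reads against 9, 7 and 16. It did not pass the filter, and the ratio of the summed reads, 32 over 33, was 0.969 with an exact counting interval of 0.577 to 1.63. The intervals of ERBB2 and ERBB3 reach rises of 0.32 and 0.42 on the log2 scale and falls of 0.19 and 0.15, and changes within these limits are not excluded by the data.

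Among the receptors, the summed FPKM was 56.7, 41.2 and 56.0 in siCTR and 59.1, 59.6 and 61.3 in siLSD1. EGFR provided 63.9 ± 2.80% of the receptor sum in siCTR and 67.7 ± 1.89% in siLSD1 (SD, n = 3 each), ERBB2 30.3 ± 2.21% and 27.0 ± 2.05%, and ERBB3 5.60 ± 0.590% and 5.20 ± 0.239%. ERBB4 provided 0.146 ± 0.0999% and 0.110 ± 0.0428%. The libraries of both groups overlapped for each of the 4 shares.

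Over all 6 libraries the members ranked, by mean FPKM, as EGFR (36.8), ERBB2 (15.8), HBEGF (9.90), ERBB3 (2.98), AREG (0.746), NRG1 (0.265), ERBB4 (0.0678) and TGFA (0.0239). Neighbours in this order were separate in the ranges of their libraries apart from AREG and NRG1. AREG was below NRG1 in siCTR replicates 2 and 3 and above it in the other libraries. EGFR was thus the dominant receptor transcript and HBEGF the dominant ligand transcript of the members in both groups, per length.

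**Figure D2:**
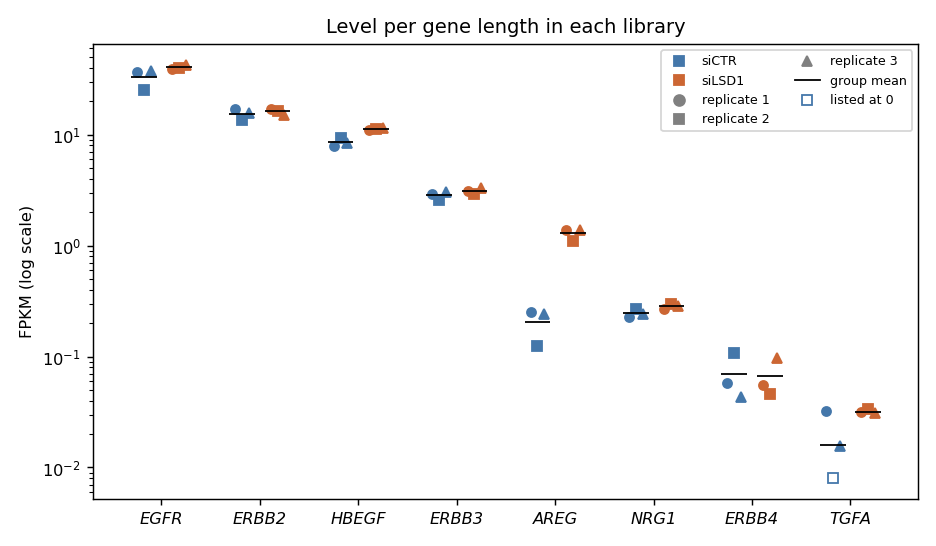
Level of each listed member in FPKM (log axis) in the 3 siCTR and 3 siLSD1 libraries, with 1 point per library, a marker shape per replicate number and a line at the group mean. The open square is a library listed at 0, drawn at the foot of the axis. AREG is the gene whose groups are farthest apart, with means of 0.205 and 1.29 FPKM, and EGFR and HBEGF also show no overlap between groups.

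Among the 5 tested members other than AREG, 0 were higher and 0 were lower with an adjusted p under 0.05 in edgeR, beside 1.07% higher and 0.371% lower among all 11844 genes tested. At an unadjusted p under 0.05, 1 of them (HBEGF) was higher and 0 were lower, beside 7.48% and 6.55% of all genes. DESeq2 and limma-voom also called 0 of the 5 after adjustment. Before it, HBEGF and EGFR were past 0.05 with both. The shares over all genes before adjustment were taken with edgeR only, so no reading is drawn from this. In CPM, HBEGF and EGFR were higher in siLSD1 with no overlap between groups and 0 were lower, beside 11.4% and 9.97%. The log2 fold changes of these 5 genes were all positive, beside 5598 of the 11844 genes tested. Their median was 0.21, beside -0.01 over all genes. The value of ERBB2 turned to -0.017 without siCTR replicate 2. AREG is left out of these counts, since it was chosen for its rise in this contrast and passed the filter through the siLSD1 group.

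**Figure D3:**
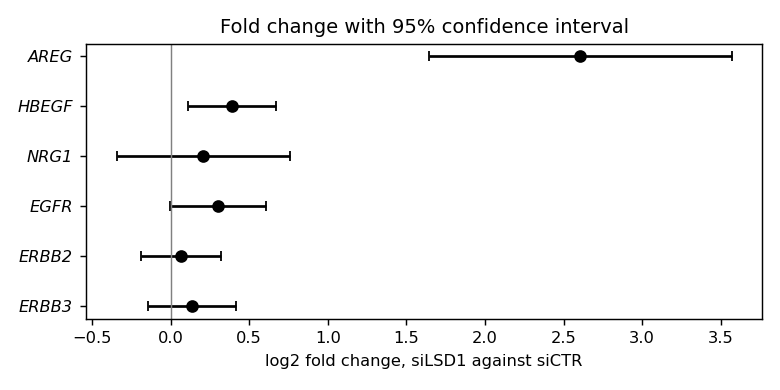
Log2 fold change (siLSD1 over siCTR) of the 6 tested members with 95% confidence intervals, and a vertical line at 0. AREG (1.64 to 3.57) was chosen for its rise, so its interval is a description. The interval of HBEGF (0.11 to 0.67) excludes 0, and those of EGFR, ERBB2, ERBB3 and NRG1 include it.

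AREG, EREG, EPGN and BTC lie in 1 cluster on chromosome 4, with EREG 80.0 kb and EPGN 137 kb before AREG and BTC 300 kb after it. The 5 annotated protein-coding genes with a row on each side were examined to see what else was measured there. Of these 10 genes, 5 were tested, and none had an adjusted or an unadjusted p under 0.05 with edgeR, DESeq2 or limma-voom. The chemokine gene CXCL2, 348 kb before AREG, had siCTR counts of 10, 8 and 15 and siLSD1 counts of 10, 18 and 22 (log2 fold change 0.59, edgeR adjusted p = 0.549). CXCL8, another chemokine gene, had 6, 8 and 12 against 10, 12 and 15 (log2 fold change 0.50, edgeR adjusted p = 0.626). The groups of both chemokine genes overlapped. MTHFD2L, which encodes a mitochondrial folate enzyme, had a log2 fold change of -0.21, and RCHY1 and THAP6 on the far side had 0.00 and -0.16 (edgeR adjusted p = 0.749, 0.994 and 0.701, in that order). RASSF6, CXCL3, PARM1, ODAPH and CDKL2 had too few reads to be tested.

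Genes of the pathway around the members were taken from 8 lists by role, with 95 genes in all. Of these, 89 had a row and 80 were tested, with 1 gene higher (PTPRJ) and 1 lower (CCND1) in siLSD1 at an adjusted p under 0.05, and 5 higher and 2 lower at an unadjusted p under 0.05. The shares over all genes tested were 1.07% and 0.371% after adjustment and 7.48% and 6.55% before it. The median log2 fold change was -0.01, as it was over all genes. The number without overlap between groups was 8 higher and 9 lower, beside 11.4% and 9.97% of all genes. The lists of other ligands, shedding, adaptors, the RAS-ERK cascade, PI3K-AKT and receptor trafficking held no gene past the adjusted threshold with edgeR, DESeq2 or limma-voom.

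PTPRJ encodes a receptor-type tyrosine phosphatase that acts on EGFR and lies at chr11:47980425-48170839. The siCTR libraries held 878, 653 and 867 of its reads, and the siLSD1 libraries, all higher, held 1273, 1198 and 1252. It rose from 61.0 ± 8.92 to 94.6 ± 1.67 CPM (SD, n = 3 each), with a log2 fold change of 0.63 (SE 0.13, 95% confidence interval 0.36 to 0.91, edgeR adjusted p = 0.0270). The call was lost without siCTR replicate 3 (adjusted p = 0.0749), siLSD1 replicate 1 (0.0805) or siLSD1 replicate 2 (0.136). CCND1 encodes cyclin D1, which drives entry into S phase and is induced by ERK signaling, and lies at chr11:69641156-69654474. Its siCTR counts of 2601, 2205 and 2704 were all above its siLSD1 counts of 1688, 1495 and 1558. CCND1 fell from 191 ± 16.7 to 120 ± 5.16 CPM, with a log2 fold change of -0.67 (SE 0.11, 95% confidence interval -0.90 to -0.43, edgeR adjusted p = 0.0113). That call was lost without siCTR replicate 3 (adjusted p = 0.0618) or siLSD1 replicate 2 (0.0902).

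At the cell surface, the shedding list (proteases and their partners) had 8 tested genes with a median log2 fold change of -0.02. At an unadjusted p under 0.05, ADAM9, a metalloprotease, was higher and RHBDF1, a partner of the sheddase ADAM17, was lower. ADAM9 had a log2 fold change of 0.35 (SE 0.11, edgeR adjusted p = 0.171), and RHBDL2, a rhomboid protease, had 0.30 (edgeR adjusted p = 0.720). RHBDF1, named after its value was seen, had -0.30 (edgeR adjusted p = 0.303). Inside the cell, the adaptor list had 12 tested genes with a median of 0.06. Its extremes were GAB1, a docking protein, at -0.38 (edgeR adjusted p = 0.402) and PTPN11, the phosphatase SHP2, at 0.32 (edgeR adjusted p = 0.203).

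The fold changes of the kinase cascades were small. All 12 tested genes of the RAS-ERK list lay between -0.13 and 0.05 on the log2 scale, with a median of -0.03 and 0 genes at an unadjusted p under 0.05. MAP2K1, which encodes MEK1, had -0.13 (edgeR adjusted p = 0.634) and NF1, an inhibitor of RAS, had -0.12 (edgeR adjusted p = 0.755). The 7 tested PI3K-AKT genes had values between -0.19 and -0.00 with a median of -0.04 and again 0 genes at an unadjusted p under 0.05. The lowest values were those of PIK3R3, a regulatory subunit of PI3K, at -0.19 (edgeR adjusted p = 0.566) and of the kinase gene MTOR at -0.09 (edgeR adjusted p = 0.837). Receptor trafficking, with 13 tested genes, had a median of 0.02 and 0 genes at an unadjusted p under 0.05, with STAM2, a sorting adaptor, at -0.25 (edgeR adjusted p = 0.527) and RAB5A, a GTPase of early endosomes, at 0.22 (edgeR adjusted p = 0.442).

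The negative regulators had 19 tested genes with a median log2 fold change of -0.04, of which PTPRJ passed the adjusted threshold. SH3KBP1, which links the ubiquitin ligase CBL to receptor uptake, had siCTR counts of 1195, 1208 and 1305 and siLSD1 counts of 1601, 1493 and 1778, without overlap. Its log2 fold change was 0.39 (SE 0.11, edgeR adjusted p = 0.104), and DESeq2, which called 1.77% of all genes higher, called it (adjusted p = 0.0435). The ERK output list had 12 tested genes with a median of 0.07, and its only gene past the adjusted threshold, CCND1, was lower. DUSP6, a phosphatase that switches ERK off and sits in both lists, had 63, 64 and 60 reads against 78, 82 and 85. These counts did not overlap, and the log2 fold change was 0.39 (SE 0.19, edgeR adjusted p = 0.380). ETV4, a transcription factor named after its value was seen, had 0.32 (edgeR unadjusted p = 0.0234, adjusted p = 0.260).

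**Figure D4:**
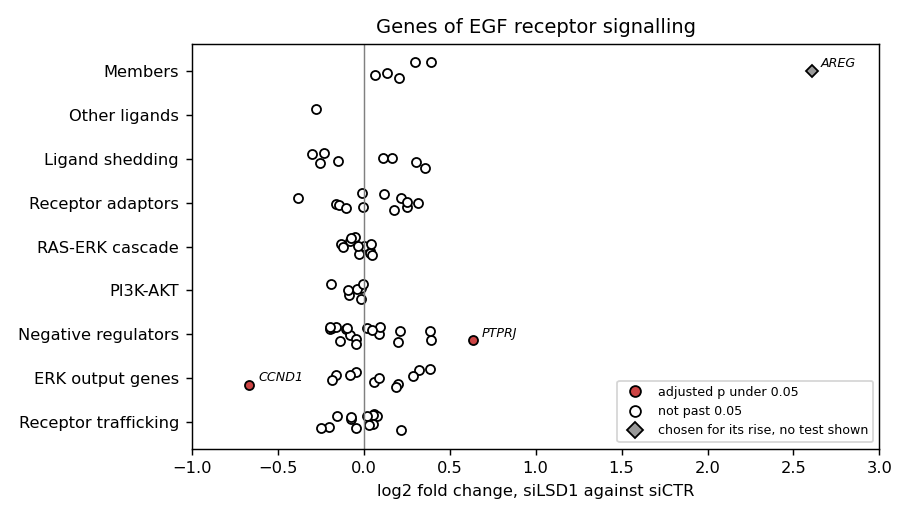
Log2 fold change (siLSD1 over siCTR) of each tested gene by list, 1 point per gene, with a vertical line at 0 and red circles for an adjusted p under 0.05. PTPRJ (0.63) and CCND1 (-0.67) are the red circles, and AREG (2.61), chosen for its rise, is a grey diamond with no test shown.

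By the pattern of log-CPM over the 6 libraries, the 5 genes of at least 1 CPM most like AREG among 11566 were SEMA5A, PLAT, CDK14, SLC7A11 and ANO2, with Pearson's r from 0.991 to 0.996. All 5 had a higher mean in siLSD1, with log2 fold changes of 1.66, 0.67, 1.01, 0.40 and 0.84, a direction fixed by their likeness to AREG. The 5 most like EGFR among 11565 were CDCA8, CDC42BPA, SCRN1, MRTFB and MYO5C, with r from 0.996 to 1.00. CDC42BPA had 656 reads in siCTR replicate 2 against 1093 and 1147 in the other siCTR libraries, the same low library as for EGFR. Among the members, the correlation with EGFR was 0.905 for ERBB3, 0.719 for ERBB2, 0.387 for HBEGF and 0.188 for NRG1. The points are 6 libraries that share their depth and group, and these values are a description without a test.

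**Figure D5:**
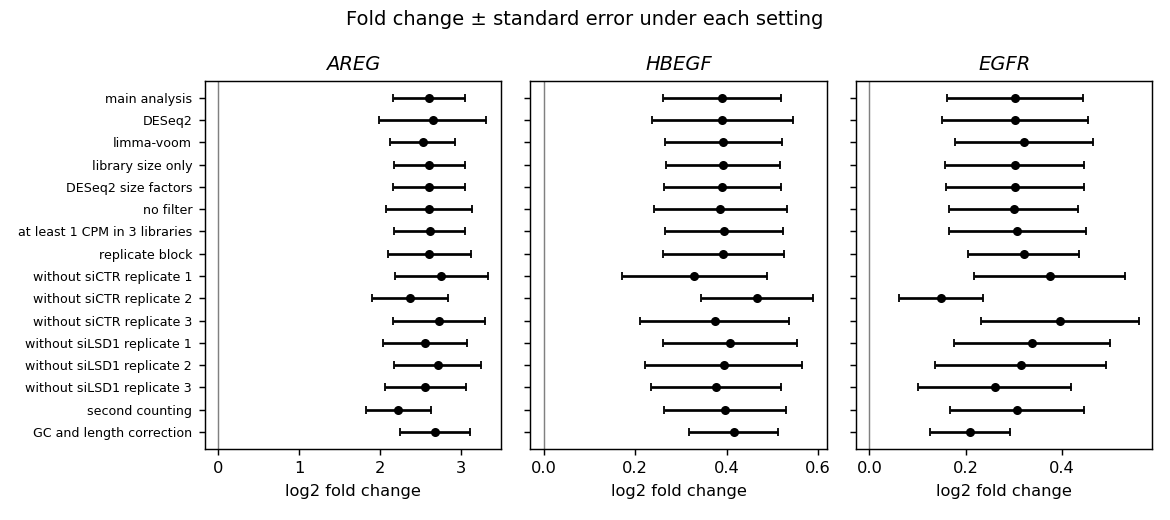
Log2 fold change (siLSD1 over siCTR) of AREG, HBEGF and EGFR under 16 settings of the processing, 1 row per setting and 1 panel per gene with its own horizontal scale. Points are fitted values, bars are ± 1 standard error and the grey line marks 0. AREG runs from 2.22 to 2.76, HBEGF from 0.33 to 0.47 and EGFR from 0.15 to 0.40, with its lowest value without siCTR replicate 2.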

How the data were processed

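RNA-seq of 6 U2OS libraries (3 siCTR and 3 siLSD1, grouped and numbered by their labels) was analysed. The authors aligned reads with STAR, and the genome build, annotation and counter are not given in the sources used here. The authors deposited read counts per gene for all 6 libraries in whole reads, FPKM values and a normalized signal, in which a library's counts are scaled by its own size factor. Tables of the 3 library pairs with the same number hold another set of counts, used as an alternative. The deposited log2 fold changes and p-values of the authors' own comparison were not used.

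The main test was edgeR 4.0.16 (TMM, filterByExpr at a count minimum of 10, quasi-likelihood, no covariates; R 4.3.3) on the counts of the whole table, with Benjamini-Hochberg adjustment over the 11844 of 15585 genes that passed. The biological coefficient of variation was 12.6%. TMM also scaled the CPM values, and a prior count of 2 was added before taking logs. Confidence intervals are at 95%, and the limit for a count of 0 is 3 counts summed over the group. Ratios of summed reads have exact binomial intervals. All other steps used Python 3.11.15, pandas 2.3.3 and scipy 1.17.1. The procedure was tested on simulated counts. Alternatives were DESeq2 1.42.0, limma-voom (limma 3.58.1), other scalings (library size only, DESeq2 size factors), no filter, a filter of at least 1 CPM in 3 libraries, a replicate block, leaving out each library, the other counting, and a lowess correction (span 0.3) for GC content and gene length, known for 99.3% of tested genes.

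Coordinates and gene properties are from GENCODE release 44 on GRCh38, and promoter windows from RefSeq (GRCh38.p14).

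Named genes were the 10 members, the other ligands, KDM1A, the genes of each list with an adjusted p under 0.05 and its 2 largest absolute log2 fold changes, 5 neighbours on each side of the AREG cluster, and the 5 genes of at least 1 CPM most correlated with AREG or with EGFR. The members and lists were chosen with earlier results of these data known. Markers of mesenchymal, epithelial, and blood or endothelial cells were also listed. The last group had 4 listed genes with a summed level of 0.218 to 0.906 FPKM in siCTR and 0.327 to 0.381 FPKM in siLSD1.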

Additional observations from a re-analysis of the deposited data

How the results depend on the processing

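All 6 tested members kept the sign of their log2 fold change under every alternative apart from ERBB2, which was -0.017 without siCTR replicate 2. Leaving out each library gave ranges of 2.37 to 2.76 for AREG, 0.33 to 0.47 for HBEGF, 0.15 to 0.28 for NRG1, 0.15 to 0.40 for EGFR, -0.017 to 0.13 for ERBB2 and 0.08 to 0.18 for ERBB3. NRG4 ran from -0.38 to -0.16. Of the members other than AREG, 0 were called higher or lower in the main analysis or with 1 library left out. Counts with AREG are not given as a result, since the gene was chosen for its rise. The pathway lists had 0 to 1 genes higher and 0 to 1 lower. With the GC and length correction HBEGF passed at 0.42 (adjusted p = 0.0232), the 1 call among these members, NRG1 and ERBB3 were at 0.12 and 0.08, and the pathway lists had 4 genes higher (ADAM9, ETV4, PTPN11 and PTPRJ). With DESeq2 the lists had 2 genes higher (PTPRJ and SH3KBP1). The cause was not tested. Over the 9 alternatives that kept all libraries the adjusted p of HBEGF ran from 0.0232 to 0.219 and that of EGFR from 0.0683 to 0.378.

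Genes called higher and lower over the whole table numbered 127 and 44 in the main analysis, 210 and 113 with DESeq2, 188 and 102 without a filter, 546 and 322 with the GC and length correction, and 45 to 99 and 7 to 37 with 1 library left out. With the replicate number as a block they were 489 and 408, and 3 pathway genes were higher (ADAM9, PTPRJ and SH3KBP1), with 0 calls among the members other than AREG. Deviations from the group means correlated at 0.33, 0.07 and 0.31 between libraries of the same number. Each library correlated best with its own number, although 1 value was under 0.1. Spearman's correlation of a library's deviations from the gene means with GC content was 0.42 in siCTR and 0.56 in siLSD1 replicate 1. It was -0.04 and 0.04 for replicate 2, and -0.20 and -0.58 for replicate 3. Whether the numbers pair the libraries was not settled, and the main fit had no block. With the block, edgeR's test gave an unadjusted p of 0.00395 for HBEGF (adjusted p = 0.0510) and 0.00638 for EGFR (adjusted p = 0.0683). Depth limits AREG, TGFA, ERBB4 and NRG1 most, with at most 36 reads in any library.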
